A study of Mus musculus with 6 samples.

Results

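The genes of lipolysis and of the lipid droplet surface were followed as a set of 9, chosen by name from 56980 listed genes: the lipases *Pnpla2*, *Lipe* and *Mgll*, the regulators *Abhd5* and *G0s2*, and the droplet proteins *Plin1*, *Plin2*, *Plin4* and *Cidec*. All 9 were found by symbol, and all 9 were measured in adipocyte nuclei. They were read in single-nucleus RNA sequencing of white fat from female C57BL/6J mice, for which the labels name no treatment or genetic change. The 3 groups, of 2 libraries each, were young and aged subcutaneous adipose tissue (SAT, the inguinal pad) and aged visceral adipose tissue (VAT, the gonadal pad), where young is 2 months and aged is 24 months. The age of 24 months is that of the sample labels, and the design text gives 26 months for the aged animals. Young VAT was not analysed here, so the comparison of ages was made in SAT alone, and depots were compared at 24 months alone.

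White adipocytes store triglyceride in a large lipid droplet and release it as fatty acids and glycerol during fasting or adrenergic stimulation. *Pnpla2* encodes ATGL, which removes the first fatty acid from triglyceride, *Lipe* encodes hormone-sensitive lipase, which acts mainly on diglyceride, and *Mgll* encodes monoglyceride lipase, which completes the release of glycerol. *Abhd5* (CGI-58) is the coactivator of ATGL and *G0s2* is its inhibitor. Perilipin 1 coats the droplet of the adipocyte and holds back ABHD5 until it is phosphorylated, perilipin 2 coats droplets in many cell types, perilipin 4 associates with droplets of adipocytes and muscle, and CIDEC promotes growth and fusion of droplets.

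The libraries held 50859 barcodes and between 8061862 and 16226690 unique molecular identifiers (UMIs, each a captured RNA molecule), and 27074 nuclei were kept, with a median of 1380 to 1878 UMIs per nucleus. Nuclei were clustered without the 9 genes and named from markers that hold none of them, and 3233 nuclei stayed unnamed. The labels call all samples adipocytes, but 7053 nuclei had the markers of adipocytes, and the rest held immune, progenitor, endothelial, epithelial and mesothelial nuclei. The 24-month VAT library of replicate 2 stood apart. A list of 7 ovary and oviduct genes summed to 2639 CPM (counts scaled to a common library total) over all its nuclei, against 19.6 to 39.0 CPM in the other libraries, and to 468 CPM in its adipocyte nuclei, against 15 to 59.3 CPM. That library also held 173 adipocyte nuclei, the fewest of the 6, where the others held 501 to 2780. At most 0.769% of the barcodes were shared between a pair of libraries. Values below are the summed counts of a class of nuclei in a library, as CPM of all UMIs of that class, so fewer transcribing nuclei and less RNA per nucleus cannot be told apart.

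The 9 genes together took 0.913% and 0.842% of all adipocyte UMIs in the 2-month SAT libraries, 1.00% and 1.11% in the 24-month SAT libraries, and 1.11% and 0.953% in the VAT libraries. The genes differed in where they were found. By the mean over libraries, 7 of the 9 had their highest level in adipocytes, and did so in all 6 other groupings or filters of the nuclei that were tried. *Cidec* reached 2962 ± 739 CPM in adipocytes (SD, n = 6 libraries) and 536 ± 450 CPM in endothelial nuclei, the class with the next highest mean. *Plin4* stood at 1880 ± 249 against 342 ± 323 CPM in the same 2 classes, and *Lipe* at 1990 ± 400 against 474 ± 276 CPM. *Plin1* stood at 1126 ± 328 against 168 ± 195 CPM, and *G0s2* at 656 ± 381 against 146 ± 152 CPM. *Pnpla2* stood at 507 ± 109 against 248 ± 217 CPM, and *Abhd5* at 127 ± 25.3 against 36.7 ± 18.9 CPM. The ranges of 1 SD around the means of these 2 classes overlapped for *Pnpla2* and *G0s2* and not for the other 5 genes. These levels describe the classes and were not tested against each other.

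*Mgll* and *Plin2* had another order. *Mgll* averaged 926 ± 891 CPM in endothelial nuclei and 541 ± 189 CPM in adipocytes, so the order of these 2 classes lay within their spread. *Plin2* averaged 231 ± 153 CPM in macrophages, 120 ± 89.6 CPM in endothelial nuclei and 86.8 ± 23.9 CPM in adipocytes, which ranked the sixth of 10 classes, with the ranges of 1 SD overlapping between macrophages and adipocytes. Macrophages had more *Plin2* than adipocytes of the same library in 6 of 6 libraries, at 128% to 445% of the adipocyte level. *Plin2*, the perilipin of cells without a large droplet, was thus the member whose highest level lay outside adipocytes in every library.

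**Figure D1:**
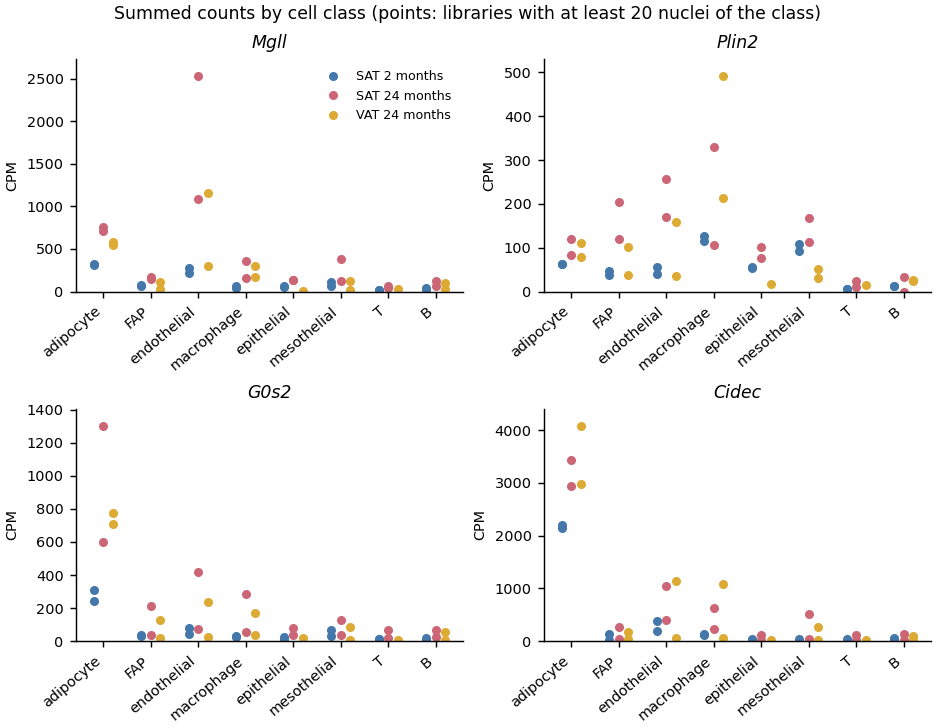
Summed counts of *Mgll*, *Plin2*, *G0s2* and *Cidec* in CPM (vertical axes) in 8 classes of nuclei (horizontal axes), 1 point per library with at least 20 nuclei of the class. *G0s2* and *Cidec* are highest in adipocytes, and the endothelial points of *Mgll* run from 213 to 2529 CPM. *Plin2* has its highest mean in macrophages, but in replicate 1 of aged SAT it is at 107 CPM there and at 170 CPM in endothelial nuclei.

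Age was compared within adipocyte nuclei of SAT, and 2 of the 9 genes rose: *G0s2* and *Mgll*. No member fell past the threshold, which was an adjusted p under 0.05 in edgeR's quasi-likelihood test with Benjamini-Hochberg adjustment over 12892 genes. Of all genes tested, 13% were called in this contrast, 6.08% as higher and 6.87% as lower at 24 months. The median log2 fold change of the 9 members was 0.71, beside -0.01 for all genes tested and 1.07 for the 8 adipocyte markers that named the class. With 2 libraries per group, an exact permutation test of a single gene could not go below p = 0.33, so the calls rest on the spread that the fit shares across genes and groups.

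*G0s2* (ENSMUSG00000009633, GRCm39 chr1:192949563-192956177, minus strand), the ATGL inhibitor, gave 243 and 309 CPM at 2 months, 600 and 1302 CPM in SAT at 24 months, and 775 and 706 CPM in VAT at 24 months. Every aged library lay above both young ones, and the aged SAT libraries were the farthest apart of the 3 pairs. *G0s2* rose by 1.93 on the log2 scale (SE 0.357, adjusted p = 0.00516), which is 3.80-fold. After thinning each nucleus to 1000 UMIs, a *G0s2* UMI was seen in 16.1% and 20.8% of adipocyte nuclei at 2 months, 38.5% and 60.9% in SAT at 24 months, and 44.1% and 33.5% in VAT. T and B nuclei were used as a background, and whether they transcribe the gene was not tested. Their thinned share was 0.736% and 1.28%, then 1.44% and 6.27%, then 9.68% and 0.481% in the same order. Without thinning, the adipocyte shares were 26.0%, 27.2%, 53.3%, 78.1%, 64.8% and 51.5%, and median depths were 1579 to 2319 UMIs in adipocyte nuclei and 1189 to 1420 UMIs in T and B nuclei.

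*Mgll* (ENSMUSG00000033174, GRCm39 chr6:88652108-88805342, plus strand), the monoglyceride lipase, had 324 and 315 CPM at 2 months, 711 and 763 CPM in SAT at 24 months, and 549 and 586 CPM in VAT. The 3 pairs of libraries did not overlap, with young SAT lowest and aged SAT highest. *Mgll* rose with age by 1.36 on the log2 scale (SE 0.265, adjusted p = 0.00662), or 2.56-fold. The thinned share of adipocyte nuclei with a *Mgll* UMI went from 22.4% and 24.8% at 2 months to 45.9% and 46.6% in SAT at 24 months, and was 39.2% and 29.5% in VAT. The same share in T and B nuclei ran from 1.70% to 6.45%, and the unthinned adipocyte shares were 38.2%, 34.3%, 66.3%, 68.7%, 63.9% and 56.1%. Both calls needed both young libraries: without replicate 1 of the 2-month SAT group the adjusted p was 0.0910 for *G0s2* and 0.0801 for *Mgll*, and without replicate 2 it was 0.0668 and 0.135, at like fold changes.

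*Lipe* and *Pnpla2*, the lipases of the earlier steps, did not pass the test with age. *Lipe* (ENSMUSG00000003123, GRCm39 chr7:25078880-25098135, minus strand) had 2553 and 2445 CPM at 2 months, 1779 and 1734 CPM in SAT at 24 months, and 1791 and 1636 CPM in VAT. Both young libraries lay above all 4 aged ones, but the fitted log2 fold change was -0.35 (SE 0.296, adjusted p = 0.470). *Pnpla2* (ENSMUSG00000025509, GRCm39 chr7:141034404-141040656, plus strand) had 598 and 616 CPM at 2 months, 389 and 591 CPM in aged SAT, and 377 and 471 CPM in VAT. Both aged SAT libraries lay below the young ones, replicate 2 only just, and the log2 fold change was -0.16 (SE 0.280, adjusted p = 0.755). The thinned share of nuclei with a *Pnpla2* UMI was 42.4% and 43.3% at 2 months and 29.9% and 36.9% in SAT at 24 months, and that of *Lipe* was 85.4% and 87.8% against 79.2% and 76.4%. In T and B nuclei the thinned share was 2.01% to 6.45% for *Pnpla2* and 3.37% to 25.8% for *Lipe*, whose highest value came from the 31 T and B nuclei of VAT replicate 1.

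*Abhd5* (ENSMUSG00000032540, GRCm39 chr9:122180621-122222936, plus strand), the coactivator that *G0s2* opposes, had 92.6 and 155 CPM at 2 months, 107 and 139 CPM in SAT at 24 months, and 118 and 151 CPM in VAT. The 3 groups overlapped, and the log2 fold change with age was 0.17 (SE 0.286, adjusted p = 0.75). The balance of the inhibitor to the lipase can be read as a ratio of UMIs within each library, which needs no scaling between libraries. There were 0.407 and 0.502 *G0s2* UMIs per *Pnpla2* UMI at 2 months, 1.54 and 2.20 in SAT at 24 months, and 2.05 and 1.5 in VAT. Per *Abhd5* UMI there were 2.63 and 1.99 *G0s2* UMIs at 2 months, 5.63 and 9.34 in aged SAT, and 6.56 and 4.68 in VAT. The ratio of *Abhd5* to *Pnpla2* was 0.155 and 0.252 in young SAT, 0.274 and 0.236 in aged SAT, and 0.313 and 0.321 in VAT, with young and aged SAT overlapping. *Mgll* UMIs per *Lipe* UMI moved from 0.127 and 0.129 to 0.400 and 0.440 in SAT, and stood at 0.306 and 0.358 in VAT. Transcript length was not taken into account, so a ratio shows a change between libraries and not which gene was the more abundant, and the ratios were not tested.

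**Figure D2:**
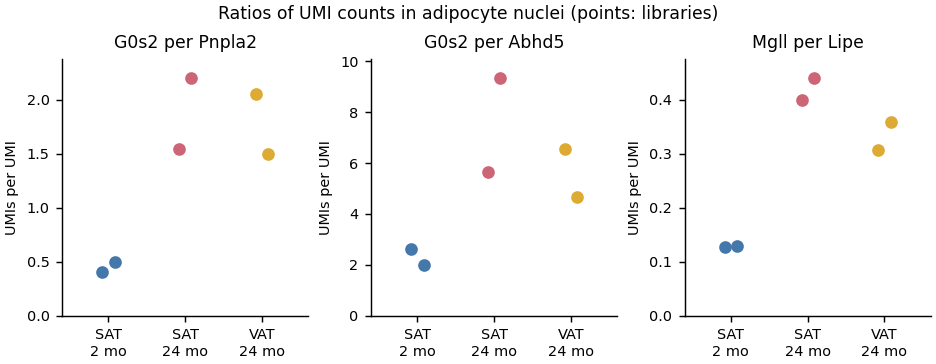
UMIs of *G0s2* per UMI of *Pnpla2*, of *G0s2* per UMI of *Abhd5* and of *Mgll* per UMI of *Lipe* in adipocyte nuclei (vertical axes), 1 point per library in the 3 groups. In each panel the 4 aged libraries lie above both young SAT libraries.

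None of the droplet proteins passed the test with age as fitted here, though *Plin2* passed in some alternatives. *Cidec* (ENSMUSG00000030278, GRCm39 chr6:113400691-113412721, minus strand) had 2198 and 2147 CPM at 2 months, 3438 and 2933 CPM in SAT at 24 months, and 4081 and 2977 CPM in VAT. All aged libraries lay above the young ones, and the log2 fold change in SAT was 0.71 (SE 0.330, adjusted p = 0.174). *Plin1* (ENSMUSG00000030546, GRCm39 chr7:79369966-79382718, minus strand) had 992 and 776 CPM, then 1004 and 1718 CPM, then 1004 and 1263 CPM in the same groups. Its lowest aged library lay just above the highest young one, with a log2 fold change of 0.76 (SE 0.324, adjusted p = 0.141). *Plin2* (ENSMUSG00000028494, GRCm39 chr4:86565912-86588459, minus strand) had 63.0 and 63.8 CPM, then 83.1 and 121 CPM, then 110 and 79.9 CPM. It had the smallest spread at 2 months of the droplet proteins, and the log2 fold change was 0.84 (SE 0.280, unadjusted p = 0.0110, adjusted p = 0.0685 by edgeR). *Plin2* passed in 4 of the 15 alternatives, with an adjusted p of 0.0211 without the low-count filter, 0.0439 with only the groups compared, 0.0419 without batch correction of the clusters and 0.0314 without replicate 1 of aged SAT. *Plin4* (ENSMUSG00000002831, GRCm39 chr17:56406617-56416931, minus strand) had 2062 and 1594 CPM, then 1920 and 1795 CPM, then 2249 and 1659 CPM. Its groups overlapped throughout, with a log2 fold change of 0.18 (SE 0.322, adjusted p = 0.766). Counted at an unadjusted p under 0.05, 4 of the 9 members passed (*G0s2*, *Mgll*, *Plin1* and *Plin2*), as did 3815 of all 12892 genes.

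Relative to *Plin1*, *Plin2* had 0.0635 and 0.0822 UMIs per UMI at 2 months, 0.0828 and 0.0703 in aged SAT, and 0.110 and 0.0633 in VAT, and *Cidec* had 2.22 and 2.77, then 3.43 and 1.71, then 4.07 and 2.36. Neither ratio separated the ages. The thinned share of adipocyte nuclei with a *Plin2* UMI was 5.94% and 5.39% at 2 months and 6.54% and 9.72% in aged SAT. That of *Cidec* was 79.8% and 80.0% against 87.4% and 85.5%, so *Cidec* was read in most adipocyte nuclei at both ages and *Plin2* in few. In T and B nuclei of SAT the shares were 0.638% to 1.29% for *Plin2* and 2.44% to 9.06% for *Cidec*.

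**Figure D3:**
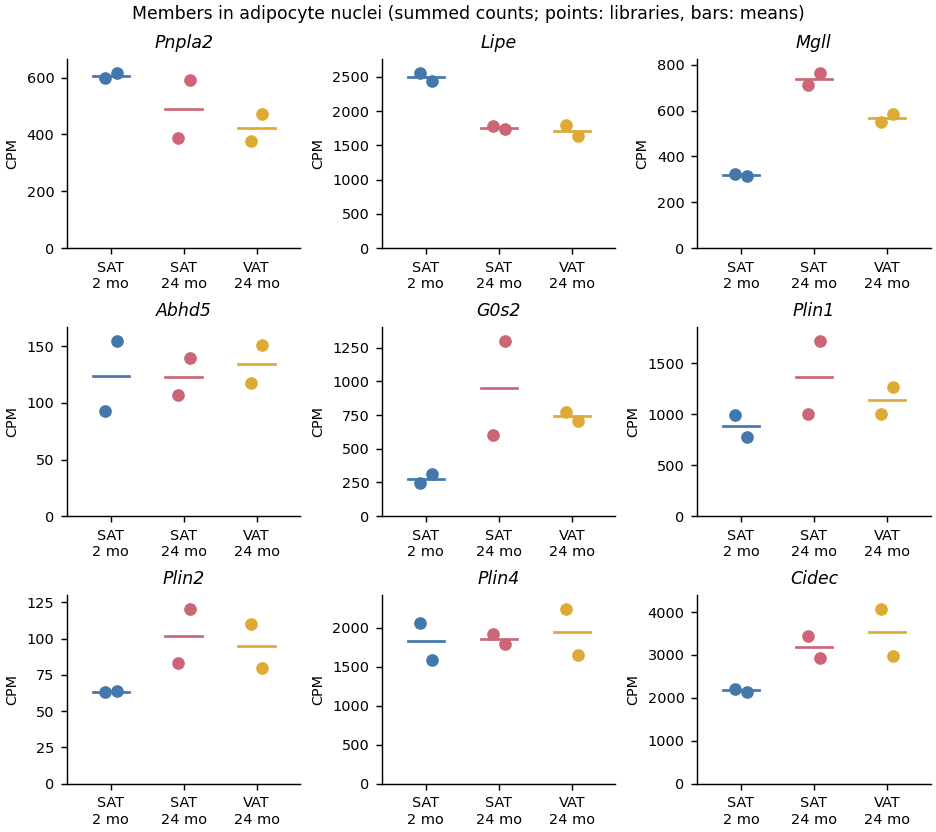
Levels of the 9 genes in adipocyte nuclei in CPM of summed counts (vertical axes, each from 0), 1 point per library and a bar at the group mean, for young SAT, aged SAT and aged VAT. *Mgll* and *G0s2* are higher in all 4 aged libraries than in the young ones, *Lipe* is lower in all 4, and *Abhd5* and *Plin4* overlap.

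Levels were also read within sub-clusters of adipocytes, with no test. Adipocyte nuclei were split into sub-clusters, of which 7 had at least 20 nuclei in all 4 SAT libraries. In 7 of these 7, both aged libraries lay above both young ones for *G0s2*, for *Mgll* and for *Cidec*, and both lay below for *Lipe*. For *Plin1* and *Plin2* the aged libraries lay above in 4 of 7, for *Abhd5* in 1, and for *Plin4* above in 1 and below in 2. *Pnpla2* was lower in both aged libraries in 4 of 7 sub-clusters. The sub-clusters share the same 4 libraries and the free RNA in them, so they are not separate replicates.

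Levels of marker genes in the adipocyte nuclei, both of adipocytes and of other cells, moved with age as well. The 8 adipocyte markers summed to 12650 and 13000 CPM at 2 months and to 23330 and 22310 CPM in SAT at 24 months, with all 8 detected in every library. The largest part of that sum was *Ghr*, at 6231 and 6524 CPM and then 13350 and 13000 CPM. Of the 8, *Lep*, *Acvr1c* and *Ghr* were called higher with age, and *Adipoq* (log2 fold change -0.16) and *Dgat2* (-0.14) were not called. The 8 T cell markers summed to 240 and 441 CPM in young SAT and to 53.3 and 36.2 CPM in aged SAT, and the 6 B cell markers to 177 and 233 CPM and to 49.2 and 28.5 CPM, with none of either list at 0 in SAT. The 8 endothelial markers summed to 72.5 and 123 CPM against 44.3 and 62.7 CPM, with *Egfl7* at 0 in all 4 SAT libraries. The 8 macrophage markers summed to 85.9 and 104 CPM against 24.2 and 85.0 CPM, with *Cd163* at 0 in replicate 1 of aged SAT. The median mitochondrial share of UMIs over all kept nuclei also differed, at 1.72% and 0.918% in young SAT, 3.49% and 2.91% in aged SAT, and 0.776% and 5.07% in VAT. The part of these shifts in the results for *G0s2* and *Mgll* was not tested.

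Promoters of the inhibitor that rose, of the lipase that rose and of the lipase that *G0s2* inhibits are shown so that the regulated and the other gene can be compared. They are the 250 bases before the annotated start (RefSeq, GRCm38.p6, 5′ to 3′ on the gene's strand), at chr1:193273189-193273438 (minus strand) for *G0s2*, chr6:88724162-88724411 (plus strand) for the first of the *Mgll* promoters, and chr7:141454938-141455187 (plus strand) for *Pnpla2*. Capitals mark every match, on either strand, to the motifs searched.
G0s2: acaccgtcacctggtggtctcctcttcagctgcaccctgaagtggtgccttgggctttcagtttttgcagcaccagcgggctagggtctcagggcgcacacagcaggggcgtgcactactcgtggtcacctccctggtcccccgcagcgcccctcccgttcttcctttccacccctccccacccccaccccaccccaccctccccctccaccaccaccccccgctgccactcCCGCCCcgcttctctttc
Mgll: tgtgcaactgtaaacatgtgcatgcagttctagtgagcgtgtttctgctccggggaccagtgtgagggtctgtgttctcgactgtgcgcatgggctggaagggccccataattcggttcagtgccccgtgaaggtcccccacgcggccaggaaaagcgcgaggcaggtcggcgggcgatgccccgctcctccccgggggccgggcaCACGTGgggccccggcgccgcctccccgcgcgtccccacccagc
Pnpla2: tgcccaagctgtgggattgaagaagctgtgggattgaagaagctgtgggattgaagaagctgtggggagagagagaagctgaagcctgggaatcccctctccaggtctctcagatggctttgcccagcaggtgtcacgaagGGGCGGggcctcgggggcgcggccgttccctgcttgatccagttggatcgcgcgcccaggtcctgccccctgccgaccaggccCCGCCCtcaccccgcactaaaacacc
The motifs were the E-box CACGTG, the GC box GGGCGG, the nuclear receptor half-site AGGTCA, the cyclic AMP response element TGACGTCA, and DR1, a direct repeat of the half-site with a spacer of 1 base, which overlaps the half-site. *G0s2* had 1 GC box close to its start, *Mgll* had 1 E-box, and *Pnpla2* had 2 GC boxes. Over all 9 members, whose *Mgll*, *Lipe* and *Cidec* have 2 promoters each in the table, an E-box was found for 2 genes, a GC box for 5, a half-site for 2, and the other motifs for 0. Of all 32851 promoters of the same length, 6.02% held the E-box, 32.7% the GC box, 14.0% the half-site, 1.55% the cyclic AMP response element and 0.0335% DR1. A match describes the letters only.

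The hormone side of lipolysis was read from 3 further lists, whose genes were tested in the same fit. Of 23 genes of hormone control, 22 were tested, 2 were called higher and 3 lower in aged SAT, with a median log2 fold change of 0.07. *Npr3*, the clearance receptor that removes natriuretic peptides, had 145 and 87.8 CPM at 2 months and 1668 and 1802 CPM in SAT at 24 months, and rose by 4.03 on the log2 scale (SE 0.373, adjusted p = 0.00012). *Gnai1*, an inhibitory G protein subunit of adenylyl cyclase, had 116 and 86.6 CPM and then 528 and 556 CPM, and rose by 2.56 (SE 0.290, adjusted p = 0.000323). Both aged VAT libraries were also above the young SAT libraries, at 1242 and 930 CPM for *Npr3* and 505 and 464 CPM for *Gnai1*.

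Among the genes of hormone control that fell were a receptor and a kinase. *Adora1*, the adenosine receptor that restrains lipolysis, had 127 and 139 CPM and then 35.3 and 30.7 CPM, and fell by 1.87 (SE 0.375, adjusted p = 0.00762). *Prkg1*, the cyclic GMP-dependent kinase downstream of natriuretic peptides, had 55.2 and 61.6 CPM and then 20.1 and 16.8 CPM, and fell by 1.53 (SE 0.313, adjusted p = 0.00856). Both aged SAT libraries lay below both young ones for *Adora1* and for *Prkg1*.

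Of 18 other droplet proteins, 16 were tested, 1 was called higher and 3 lower, with a median log2 fold change of 0.08. *Cav1*, a caveolar protein that is also found on droplets, had 371 and 214 CPM at 2 months and 826 and 1268 CPM in aged SAT, and rose by 1.97 (SE 0.345, adjusted p = 0.00399). *Cidea*, the relative of *Cidec* typical of brown and beige fat, had 23.4 and 52.4 CPM and then 3.46 and 5.36 CPM, a log2 fold change of -2.81 (SE 0.727, adjusted p = 0.0270, and 0.166 by DESeq2). *Plin5*, the perilipin of oxidative tissue, had 20.1 and 30.8 CPM and then 4.16 and 4.44 CPM, a log2 fold change of -2.38 (SE 0.606, adjusted p = 0.0253). *Bscl2*, which encodes seipin, a protein of droplet formation, had 337 and 326 CPM and then 81.7 and 178 CPM, a log2 fold change of -1.20 (SE 0.320, adjusted p = 0.0308).

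Of 12 other lipases and genes that handle the released fatty acid and glycerol, all 12 were tested, 0 were called higher and 1 lower, with a median of 0.18. That gene was *Ces1d*, a carboxylesterase with triglyceride hydrolase activity, which had 1756 and 1449 CPM at 2 months and 479 and 729 CPM in aged SAT, a log2 fold change of -1.27 (SE 0.300, adjusted p = 0.0184). The glycerol channel gene *Aqp7* had a log2 fold change of 0.92 and did not pass (adjusted p = 0.0883). *Adrb3*, the main adrenergic receptor of mouse adipocytes, had 1711 and 1425 CPM at 2 months and 1132 and 1781 CPM in aged SAT, and its log2 fold change was 0.04. Leaving out either young library ended the calls of *Adora1*, *Prkg1*, *Cidea*, *Plin5*, *Bscl2* and *Ces1d*, and leaving out replicate 2 of the young group ended that of *Cav1*. *Prkg1* and *Plin5* also lost the call without replicate 2 of aged SAT, and *Bscl2* and *Ces1d* without replicate 1, with adjusted p from 0.0667 to 0.239 over these lost calls. With a looser cell filter the adjusted p was 0.0614 for *Prkg1*, 0.0685 for *Plin5* and 0.0657 for *Bscl2*, and without the low-count filter it was 0.0669 for *Bscl2* and 0.0686 for *Ces1d*. *Npr3* and *Gnai1* stayed called without any 1 library.

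**Figure D4:**
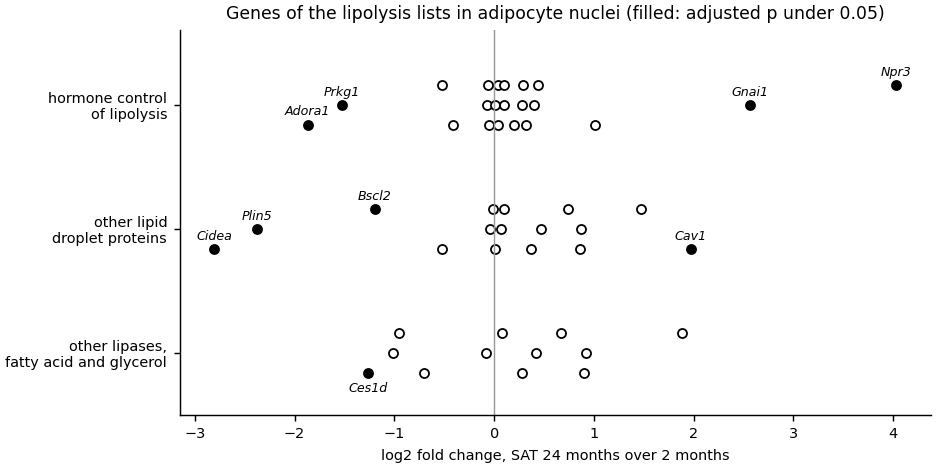
Log2 fold change of the tested genes of the 3 lists in adipocyte nuclei, SAT at 24 months over 2 months (horizontal axis), 1 point per gene, filled where the adjusted p was under 0.05. Of the 10 called genes 9 are drawn, 3 to the right of zero and 6 to the left, and most open points lie between -1 and 1.

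No difference between depots was found for the 9 genes in adipocytes at 24 months. By the study's methods both depots were taken from 2 mice per age, so aged SAT and VAT libraries may share animals, and the test treats them as separate. Of all genes tested, 0.147% were called between VAT and SAT, and of the members 0 were called by edgeR, 0 by DESeq2, and 0 at an unadjusted p under 0.05. The log2 fold changes of VAT over SAT ran from -0.37 for *Mgll* (SE 0.260, adjusted p = 0.836) to 0.16 for *Cidec* (SE 0.328, adjusted p = 0.964). *G0s2* had -0.33 (SE 0.344, adjusted p = 0.905) and *Plin1* -0.25 (SE 0.323, adjusted p = 0.932). *Pnpla2* had -0.21 (SE 0.282), *Plin2* -0.04 (SE 0.272), *Lipe* -0.03 (SE 0.296), *Plin4* 0.09 (SE 0.322) and *Abhd5* 0.11 (SE 0.287). These errors leave room for differences of the size seen for *Lipe* with age. The VAT libraries of *Mgll*, at 549 and 586 CPM, were both below the SAT libraries, at 711 and 763 CPM, and for the other 8 genes the depots overlapped. In VAT replicate 2, the library with ovary and oviduct genes, *Cidec* had 2977 CPM and *Plin4* 1659 CPM against 4081 and 2249 CPM in replicate 1.

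None of the genes of the 3 lists was called between depots by edgeR, with 6 at an unadjusted p under 0.05, beside 893 of all 12892 genes, and DESeq2 called 14 of them over both contrasts, against the 10 above. The lowest p of the 6 was that of *Npr1*, a natriuretic peptide receptor named after its values were seen, with 6.23 and 8.13 CPM in SAT and 25.1 and 62.2 CPM in VAT and a log2 fold change of 2.41 (adjusted p = 0.136). *Adrb3* had 2225 and 3060 CPM in VAT, both above the SAT libraries, with a log2 fold change of 0.87 (SE 0.326, adjusted p = 0.640). *Aqp7* had -0.87 (adjusted p = 0.653), *Cidea* 2.58 (adjusted p = 0.381), with 39.7 and 2.22 CPM in VAT, and *Plin5* 1.35 (adjusted p = 0.711).

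**Figure D5:**
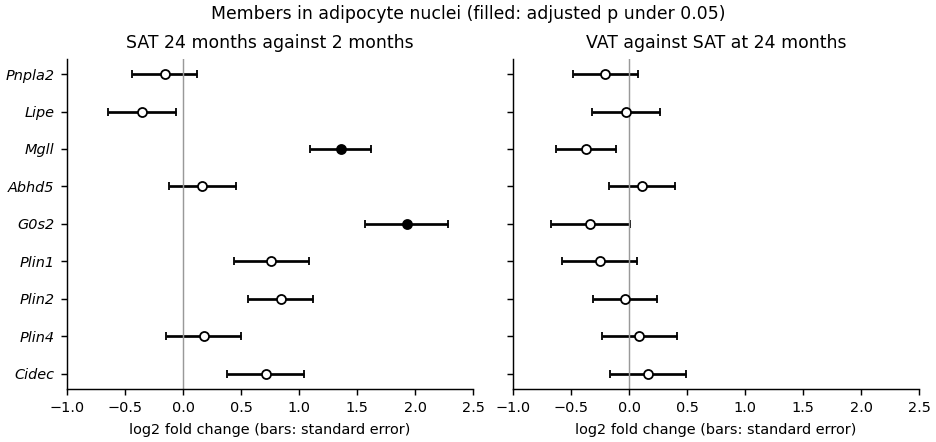
Log2 fold changes of the 9 genes in adipocyte nuclei (horizontal axes, bars of 1 standard error), SAT at 24 months over 2 months on the left and VAT over SAT at 24 months on the right, filled where the adjusted p was under 0.05. *Mgll* and *G0s2* are the filled points with age, and no point is filled between depots.

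Outside adipocytes, the age contrast was made in SAT for 5 further classes. In epithelial nuclei, where 7.87% of genes were called, 2 members rose and none fell. *Mgll* had 49.6 and 69.5 CPM at 2 months and 140 and 134 CPM at 24 months, and rose by 1.21 (SE 0.223, adjusted p = 0.00562). *G0s2* had 11.7 and 27.2 CPM and then 36.2 and 79.9 CPM, and rose by 1.67 (SE 0.430, adjusted p = 0.0312, and 0.0513 by DESeq2). Levels in lymphocytes, used here as a background, moved the same way, and whether lymphocytes transcribe these genes was not tested. In T nuclei *Mgll* went from 14.7 and 15.8 to 37.9 and 65.3 CPM and *G0s2* from 10.8 and 13.9 to 19.0 and 68.4 CPM. In B nuclei *Mgll* went from 36.3 and 22.2 to 61.4 and 121 CPM, and *G0s2* from 8.77 and 18.0 to 26.3 and 64.3 CPM. The part of free RNA in the epithelial result was not tested. Without replicate 1 of young SAT the adjusted p was 0.0696 for *Mgll* and 0.144 for *G0s2*, and without replicate 2 of aged SAT it was 0.240 for *G0s2*. *Mgll* UMIs per *Adipoq* UMI, *Adipoq* being an adipocyte gene, were 1.31, 1.85, 25.7 and 1.34 in epithelial nuclei and 0.271, 0.297, 1.65 and 0.539 in adipocytes of the 4 SAT libraries.

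In endothelial nuclei 0.0271% of genes were called with age and 0% between depots (374 genes at an unadjusted p under 0.05 and 18 by DESeq2), and no member was among them. With age, DESeq2 called 65 of all genes here, 1 member (*Mgll*) among them. *Mgll*, whose enzyme also degrades an endocannabinoid, had 274 and 213 CPM at 2 months, 1084 and 2529 CPM in SAT at 24 months, and 1155 and 300 CPM in VAT. Both aged SAT libraries lay above both young ones, with a log2 fold change of 3.12 (SE 0.769, adjusted p = 0.196). *Adipoq*, an adipocyte gene, stood beside it at 213, 142, 176, 1292, 483 and 85.4 CPM in the same nuclei, which was 91.3% of the adipocyte level in replicate 2 of aged SAT and 92.8% in replicate 1 of VAT. *Mgll* was at 84.7%, 67.7%, 153%, 331%, 211% and 51.2% of the adipocyte level. Relative to *Adipoq* there were 1.29 to 6.18 *Mgll* UMIs per UMI in endothelial nuclei, more than in adipocytes of the same library in each of the 6. The thinned share of endothelial nuclei with a *Mgll* UMI was 22.2%, 9.09%, 47.2%, 84.6%, 55.2% and 20.4%, above that of T and B nuclei in each library.

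In macrophages 0% of genes were called with age (1083 at an unadjusted p under 0.05 and 39 by DESeq2) and 0.0221% between depots, with no member in either. *Plin2* had 127 and 116 CPM at 2 months, 107 and 329 CPM in aged SAT, and 491 and 214 CPM in VAT. Replicate 1 of aged SAT lay below both young libraries, and both VAT libraries lay above them. The thinned share of macrophages with a *Plin2* UMI was 10.4%, 8.20%, 7.35%, 21.1%, 27.4% and 15.2%, against 0.638%, 0.655%, 1.29%, 1.05%, 3.23% and 1.56% in T and B nuclei. There were 0.808 to 4.69 *Plin2* UMIs per *Adipoq* UMI in macrophages and 0.0528 to 0.212 in adipocytes, and the part of free RNA in the level of macrophages was not tested. *Mgll* in macrophages had a log2 fold change with age of 2.49 (SE 0.50, adjusted p = 0.172) and *G0s2* of 2.92 (adjusted p = 0.253), and neither passed, while 1 member, *Mgll*, was among the 39 genes that DESeq2 called.

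In fibro-adipogenic progenitors (FAPs), the fibroblast-like cells that include adipocyte precursors, 0% of genes were called with age (837 at an unadjusted p under 0.05 and 11 by DESeq2) and 0.0252% between depots. *Plin2* had 47.4 and 37.8 CPM at 2 months and 120 and 204 CPM in aged SAT, with a log2 fold change of 2.00 (SE 0.580, adjusted p = 0.319). VAT was at 102 and 37.1 CPM, and its second library lay below both young ones. *G0s2* had a log2 fold change of 2.02 (adjusted p = 0.450). In mesothelial nuclei, whose cells line visceral surfaces, 0% of genes were called with age (363 at an unadjusted p under 0.05 and 7 by DESeq2). Between depots 5.94% were called, and 0 of the 8 members tested were among them. The SAT libraries held 58 to 106 such nuclei each, and 0 without batch correction of the clusters. Neither contrast could be made in this class without that correction. *Plin2* was the nearest, with 114 and 167 CPM in aged SAT and 50.3 and 31.7 CPM in VAT and a log2 fold change of -1.60 (SE 0.457, adjusted p = 0.0891). *Abhd5* was too low to be tested there. Leaving out VAT replicate 1 left VAT with only the library with ovary and oviduct genes. Members were then called between depots in these classes, all of them lower in VAT than in aged SAT. In those depot fits 4.99% of all genes were called in FAPs (4 of 9 members), 3.33% in endothelial nuclei (8 of 9), 2.36% in macrophages (5 of 9) and 16.7% in mesothelial nuclei (7 of 8).

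Summed over all nuclei of a library, whose makeup differed, 0% of genes were called with age (1794 at an unadjusted p under 0.05, and 292 by DESeq2) and 0.0138% between depots, with no member in either. *Mgll* had 95.7 and 59.4 CPM at 2 months, 300 and 807 CPM in SAT at 24 months, and 485 and 94.6 CPM in VAT, with a log2 fold change with age of 3.10 (SE 1.03, adjusted p = 0.601). *G0s2* had 60.4 and 46.5 CPM, then 189 and 757 CPM, then 628 and 42.4 CPM, with a log2 fold change of 3.43 (SE 1.42, adjusted p = 0.601). The errors over all nuclei were more than those within adipocytes for both genes. Replicate 2 of VAT, with the fewest adipocyte nuclei, was below both young SAT libraries for *G0s2*.

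Likeness between genes was read over 55 sums of a class in a library, as Pearson's r of log2(CPM + 10) among 12941 genes. The sums share libraries and classes, so r describes mainly which classes hold a gene. *Plin1* and *Cidec* were the most alike of the members (r = 0.931), and *Plin1* and *Plin2* the least (r = 0.417), with *Plin2* at 0.417 to 0.587 with the other 8. *Plin4* was most like *Slc7a10* (0.978) and *Adrb3* (0.970), *Cidec* like *Ankef1* (0.966) and *Car3* (0.957), and *Plin1* like *Lgals12* (0.951) and *Cd1d1* (0.947). *Lipe* was most like *Lgals12* (0.931) and *Acsl1* (0.916), *G0s2* like *Nnat* (0.917) and *Ankef1* (0.912), and *Pnpla2* like *Retn* (0.905). *Mgll* was most like *Sncg* (0.897) and *Fabp4* (0.890), *Abhd5* like *Fam13a* (0.847) and *Vegfa* (0.845), and *Plin2* like *Sash1* (0.755) and *Fth1* (0.732). *Plin2* thus had the lowest likeness to its nearest genes of all 9.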

How the data were processed

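Nuclei of 6 libraries were profiled with the Singleron GEXSCOPE kit. The deposited files hold raw UMI counts per gene and barcode, which the authors made with Celescope on GRCm39, with no normalization. The Celescope version and whether counting used strand are not given in the sources used here. On the opposite strand, *Lamb3* overlaps *G0s2*, *4732471J01Rik* overlaps *Lipe* and *Hdgfl2* overlaps *Plin4*. Also on the opposite strand, *Gm72429* overlaps *Pnpla2*, *Gm35398* and *A730085K08Rik* overlap *Abhd5*, and *Gm52871* overlaps *Cidec*. *Mgll* overlaps 7 genes, of which *Gm44005*, *Gm43999* and *Gm44001* are on the same strand. Reads could be split or shared at these genes.

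Barcodes with at least 500 genes and 1000 UMIs and at most 15% mitochondrial UMIs were kept. The 1000 most variable genes without the 9 members gave 30 principal components, corrected for library. These gave 41 Leiden clusters at resolution 2 (leidenalg 0.10.2, Python 3.11.15). A name needed at least 3 fixed markers raised over 2-fold and a mean log2 fold of at least 0.5. Further rules used the leading genes of a cluster and the closeness of a second list, and a second pass took up clusters left unnamed. The naming rule was adjusted several times after clusters were seen. Doublets were kept in the main analysis. Scrublet (scanpy 1.11.5) called 36 of 27074 nuclei (0.133%), so it had not worked. Removing the 6% of nuclei with the highest scores, 1625 in all, was an alternative chosen after seeing the data.

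Raw counts were summed per library and class, with at least 20 nuclei, since nuclei are not replicates. They were tested with edgeR 4.0.16 (R 4.3.3; TMM, filterByExpr, quasi-likelihood test, all 6 libraries in 1 fit of 3 groups), with Benjamini-Hochberg adjustment over all genes of a class and contrast. DESeq2 1.42.0 was an alternative. The tests are two-sided. Counts were simulated for 12892 genes in adipocytes and the age contrast, with the same spread set for every gene and few genes changed. Of genes changed by 1 log2 unit 2.1% were recovered, and of those changed by 2 log2 units 40.4%. Shares of nuclei were computed after thinning to 1000 UMIs, and no nucleus was left out. The study took both depots from 2 mice per age, but which libraries share a mouse is not given in the sources used here, so depots were tested without pairing and p-values measure only the spread between these libraries. No cluster annotation of the authors was used.

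The members, the 3 further lists and the markers were chosen with earlier results of these data known. The genes named from the lists were the 3 called genes with the largest change in each direction per list and contrast, with *Plin3*, *Plin5*, *Cidea*, *Adrb3*, *Pde3b* and *Aqp7* allowed where fewer were called. The list counts include 1 called gene, and the like genes 1 gene, that are not reported here by name. *Plin3* (0.37 with age, 0.07 between depots) and *Pde3b* (-0.07 and -0.18) were not called. Like genes were the 2 with the highest r and a mean of at least 20 CPM in a class. Promoters were taken from RefSeq, and all 9 members matched. Protein sequences were not used here.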

Additional observations from a re-analysis of the deposited data

Results flagged for a closer look

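*Pnpla2* and *Lipe* moved in opposite directions with age in macrophages and in adipocytes of SAT, in both libraries of each age. As log2 ratios of mean CPM, *Pnpla2* stood at 1.11 in macrophages and -0.31 in adipocytes, and *Lipe* at 0.59 and -0.51. The difference between the classes was not tested, and in neither class did either gene pass edgeR's test. In macrophages *Pnpla2* had 94.2 and 80.3 CPM at 2 months and 107 and 274 CPM at 24 months, and *Lipe* 241 and 178 CPM and then 246 and 386 CPM. *Adipoq*, an adipocyte gene, had 94.2, 93.0, 57.5 and 407 CPM in the same macrophage sums, and its part in the difference was not tested.

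The 9 genes were also detected in the 23785 barcodes that were not kept as nuclei. Their summed level there ran from 357 CPM in the lowest library, VAT replicate 2, to 3976 CPM in the highest, SAT at 24 months replicate 2. In T and B nuclei of these libraries, the summed level was 172 and 697 CPM.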

How the results depend on the processing

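Alternatives were DESeq2, library-size scaling, no low-count filter, only the groups compared, other cell filters and clusterings, the replicate block, and leaving out each library, which leaves a lone library assumed to vary like the other groups. Library-size scaling shifted the median age log2 fold change of all adipocyte genes to -0.17, and the causes of the changes below were not tested. In adipocytes the 2 members called with age became 0 to 3 when a library was left out (0 without either 2-month library, 3 with *Plin2* without replicate 1 of aged SAT), and 3, again with *Plin2*, without the low-count filter, with only the groups compared and without batch correction of clusters, and the log2 fold change ran from 1.35 to 2.45 for *G0s2* and from 1.19 to 1.61 for *Mgll* over 15 alternatives, with adjusted p from 1.96e-07 to 0.0910 and from 5.04e-06 to 0.135. The count over all genes was 499 and 309 without the young libraries, 957 with a looser cell filter and 1003 without replicate 2 of aged SAT, against 1670. Between depots the 19 genes became 33 by DESeq2, 163 without the low-count filter, 0 with only the groups compared, 1 with the looser cell filter, and 15 to 65 without a library, and the members stayed at 0. Over all nuclei, 5 members were called with age without the low-count filter (main: 0), as were 953 of all 41598 genes, and 0 to 1 between depots when a library was left out. In the other classes the 2 calls became 12 without the low-count filter, 7 with only the groups compared, 0 with the looser cell filter, 1 with the members among the clustering genes, and 1 to 26 when a library was left out (26 without VAT replicate 1, 4 without replicate 1 of aged SAT, 1 without replicate 1 of young SAT). The 2 calls were the epithelial ones with age, and the counts without a VAT library include them unchanged. The epithelial call of *G0s2* was lost in 6 alternatives and that of *Mgll* in 2. The 10 calls in the pathway lists became 2 to 13 when a library was left out.

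Directions turned only for members that were not called. When a library was left out, the age values ran from -0.418 to 0.172 for *Pnpla2* and from -0.132 to 0.572 for *Abhd5*. The depot values then ran from -0.481 to 0.061 for *Pnpla2*, -0.154 to 0.084 for *Lipe*, -0.066 to 0.257 for *Abhd5*, -0.797 to 0.257 for *G0s2*, -0.599 to 0.115 for *Plin1*, -0.412 to 0.212 for *Plin2*, -0.216 to 0.331 for *Plin4* and -0.152 to 0.411 for *Cidec*. With age, *Pnpla2* was 0.105 without the low-count filter, and between depots *Lipe* was 0.009 without batch correction of clusters and 0.006 with the members among the clustering genes.

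With the replicate number as a block, the members called in adipocytes stayed at 2 with age and 0 between depots, and all genes at 1837 and 16. Same-numbered libraries did not deviate together (correlations of -0.09 to 0.08 in adipocytes). Only libraries of the same age can share a mouse, and aged SAT and VAT had 0.077 in adipocytes. With 2 libraries per group, such a value cannot show whether same-numbered libraries share an animal. Over all nuclei the depots had a correlation of -0.48, and a block with crossed numbers, chosen after seeing the data, called 0 members, as did the block itself. With 2 libraries per group, changes of 2-fold were mostly beyond what the test could call.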
